A study of Arabidopsis thaliana with 41 samples.

Results

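The genes described here are nuclear genes of Arabidopsis thaliana whose transcripts were higher in both mutants of the histone acetyltransferase complex NuA4 and lower in the glk mutant. They were picked from the measured values. CPM, the count of a gene scaled to a common library total, was taken over the 31742 nuclear gene rows of each library, and a gene was kept where its mean in WT was at least 2 CPM, where log2((mutant mean + 1)/(WT mean + 1)) was at least 0.8 in both Atepl1-2 and Ateaf1-1, and where the same ratio was -0.8 or lower in glk. Of the 31742 nuclear genes, 16305 reached the WT minimum and 218 met the whole rule. Of the 16305 genes, 2616 (16.0%) met the NuA4 condition, 1206 (7.4%) the glk condition and 1.34% both. These 3 contrasts chose the genes, so their ratios are given as a description and carry no test.

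RNA-seq was run on the fifth and the sixth rosette leaves of long-day-grown plants in the Col-0 background, several plants pooled per library, harvested in the light. Atepl1-2 carries Cas9-made frameshift deletions in both AtEPL1A and AtEPL1B, the paralogous genes for the Enhancer of Polycomb-like subunit of NuA4. Ateaf1-1 carries a Cas9-made deletion that joins AtEAF1A and AtEAF1B into a frameshifted chimera. EAF1 is the platform subunit of the complex. glk is the glk1-1 glk2-1 double transposon insertion mutant, which lacks the GOLDEN2-LIKE transcription factors. All of the mutations are present from germination on and in every cell, and WT is unmutated Col-0. The second label set held Atepl1-2 replicates 1, 3 and 4, Ateaf1-1 replicates 1, 2 and 3, glk replicates 1, 2 and 3 and WT replicate 4. The first label set held Atepl1-2 replicates 1, 3 and 4 and WT replicates 5, 7 and 8. What distinguishes the sets is not given in the labels, nor whether libraries that share a genotype and a number came from the same plants. The rule used the mutants of the second set and all 4 WT libraries, so 3 of its 4 WT libraries came from the other set.

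NuA4 acetylates histones H4 and H2A.Z at the start of transcribed genes, and GLK1 and GLK2 switch on genes of chlorophyll synthesis and light harvesting. In leaves, salicylic acid, which derives from isochorismate made in the chloroplast by isochorismate synthase, is the hormone of immunity against biotrophic pathogens. The regulators SARD1 and CBP60g bind the promoter of the isochorismate synthase gene, EDS1 relays signals from intracellular receptors, and pattern-recognition receptors at the plasma membrane start the response to microbial molecules. WRKY transcription factors, many of them made during this response, recognise the W-box in promoters.

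The 218 genes together took 3.44%, 3.41% and 3.89% of nuclear gene counts in the Atepl1-2 libraries, 3.05%, 2.85% and 3.31% in the Ateaf1-1 libraries and 0.181%, 0.195% and 0.149% in the glk libraries, against 0.603%, 0.760%, 0.539% and 0.623% in WT replicates 5, 7, 8 and 4. In the first label set they took 4.28%, 5.46% and 5.04% in Atepl1-2. No mutant library overlapped a WT library in this share. The mutants of the second set and the 4 WT libraries chose the genes, so their separation follows from the rule. The Atepl1-2 libraries of the first set were not used by the rule.

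**Figure D1:**
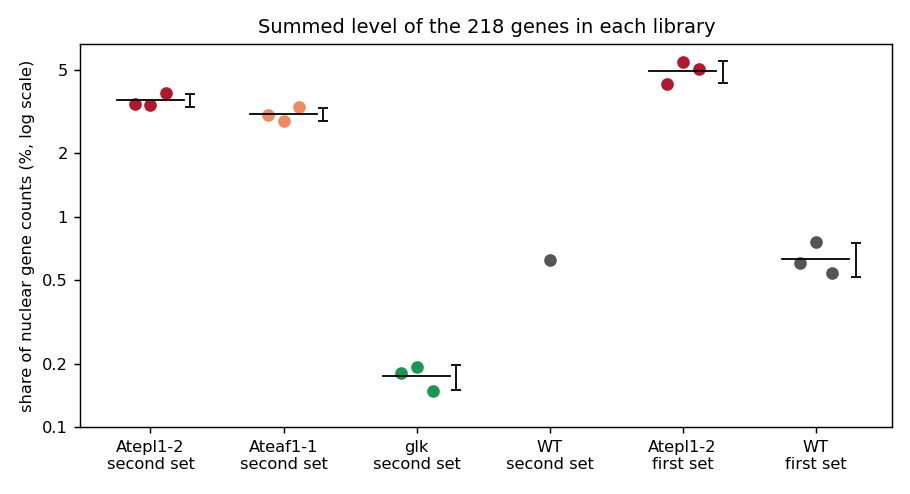
Share of nuclear gene counts (%, log scale) taken by the 218 genes in each library; points are libraries, horizontal lines group means and error bars SD (n = 3, with a single WT library in the second set). The glk libraries lie between 0.149% and 0.195%, the WT libraries between 0.539% and 0.760% and the NuA4 mutants at 2.85% or more. The rule chose the genes for these directions in the second set.

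Total counts per library, rounded to the nearest 100, ran from 22330100 to 39666300 and nuclear gene counts from 8338600 to 20307000. Nuclear genes made up 40.2% to 51.4% of counts in Atepl1-2 and 46.0% to 52.9% in Ateaf1-1 of the second set and 33.0% to 36.1% in glk, against 31.5% to 36.4% in WT, and the rule divides by nuclear counts. On that scale the median gene above the WT minimum had a log2 ratio of 0.29 (Atepl1-2), 0.32 (Ateaf1-1) and 0.52 (glk) to WT, so a gene at -0.8 in glk lies further below the typical gene than below WT. GLK1 stood at 23.8, 24.6 and 26.7 CPM in glk, against 133, 94.0, 105 and 160.3 CPM in WT. GLK2 stood at 94.3, 109.8 and 92.2 CPM in glk, against 91.3, 64.8, 68.4 and 77.8 CPM in WT, so the glk2-1 allele cannot be checked by its transcript level. Where markers of another tissue moved with a genotype their part in the results was not tested. The summed level of 4 flower genes was 23.6 to 41.3 CPM in glk, against 0.313 to 3.24 CPM in WT. It was 4.92 to 9.65 CPM in Atepl1-2 and 2.48 to 8.36 CPM in Ateaf1-1 of the second set. The sum of 3 shoot meristem genes was 20.7 to 28.7 CPM in glk, against 0 in all 4 WT libraries. It was 8.69 to 10.1 CPM in Atepl1-2 and 5.47 to 9.003 CPM in Ateaf1-1 of the second set. The sum of 3 root genes was 142 to 176 CPM in Atepl1-2 of the second set and 123 to 215 CPM in Ateaf1-1. It was 61.2 to 108 CPM in glk, against 5.67 to 23.3 CPM in WT. In Atepl1-2 of the first set the flower sum was 5.99 to 6.298 CPM. The meristem sum there was 0 to 0.735 CPM and the root sum 18.6 to 43.7 CPM. So the meristem and root sums of Atepl1-2 differed between the label sets. In the root sum PYK10 had log2 ratios to WT of 5.14 (Atepl1-2), 5.21 (Ateaf1-1) and 4.05 (glk). SCR had 0.73, 1.35 and 0.69 in the same order, and RHD6 had ratios of 0 throughout. The root sum thus moved mainly with PYK10. The 4 mesophyll markers summed to 14340 to 16246 CPM in Atepl1-2, 16871 to 25273 CPM in Ateaf1-1 and 19039 to 20332 CPM in glk, against 13168 to 34714 CPM in WT. The 4 phloem markers summed to 232 to 444 CPM in Atepl1-2 and 385 to 450 CPM in Ateaf1-1 of the second set. They summed to 657 to 707 CPM in glk, against 669 to 909 CPM in WT. The 2 trichome markers summed to 11.2 to 14.9 CPM in Atepl1-2, 10.35 to 16.9 CPM in Ateaf1-1 and 7.41 to 14.2 CPM in glk. Their sum in WT was 2.68 to 3.65 CPM. None of the markers is among the 218 genes. In whole leaves, fewer cells that make a transcript and less transcript per cell cannot be told apart.

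Promoter sequences of 5 of the genes are shown because W-box cores were frequent among the 218 genes. Each is the 250 bases before the gene start in RefSeq (assembly TAIR10.1), read on the gene's strand, with the core TTGAC, or its reverse complement GTCAA, in capitals. SARD1, SYP122 and WRKY30 carry several cores, NIMIN-2 carries 2 and EDS16, the isochorismate synthase gene also called ICS1, carries none in this window. The stretches lie at chr1:27749249-27749498 (minus strand, SARD1), chr3:19427231-19427480 (minus strand, SYP122), chr5:8154711-8154960 (minus strand, WRKY30), chr3:9471040-9471289 (minus strand, NIMIN-2) and chr1:28070045-28070294 (plus strand, EDS16).
SARD1: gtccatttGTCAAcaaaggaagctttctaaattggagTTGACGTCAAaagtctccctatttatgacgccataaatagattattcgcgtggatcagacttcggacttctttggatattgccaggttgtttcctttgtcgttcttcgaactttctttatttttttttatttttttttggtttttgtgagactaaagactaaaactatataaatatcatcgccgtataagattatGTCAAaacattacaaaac
SYP122: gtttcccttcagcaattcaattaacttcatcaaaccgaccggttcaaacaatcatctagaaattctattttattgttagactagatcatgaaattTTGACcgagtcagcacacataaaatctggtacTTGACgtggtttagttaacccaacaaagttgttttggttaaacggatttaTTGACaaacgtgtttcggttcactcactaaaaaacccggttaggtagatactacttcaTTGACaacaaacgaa
WRKY30: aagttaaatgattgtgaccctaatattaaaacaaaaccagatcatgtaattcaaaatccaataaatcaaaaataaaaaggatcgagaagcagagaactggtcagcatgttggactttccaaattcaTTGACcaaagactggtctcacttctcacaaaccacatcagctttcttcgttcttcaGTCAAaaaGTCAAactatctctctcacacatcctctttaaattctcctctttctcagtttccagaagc
NIMIN-2: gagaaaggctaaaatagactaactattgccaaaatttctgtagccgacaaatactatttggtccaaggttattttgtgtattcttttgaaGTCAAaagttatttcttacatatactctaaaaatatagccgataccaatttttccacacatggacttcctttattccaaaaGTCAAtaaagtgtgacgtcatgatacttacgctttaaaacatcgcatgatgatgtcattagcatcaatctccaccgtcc
EDS16: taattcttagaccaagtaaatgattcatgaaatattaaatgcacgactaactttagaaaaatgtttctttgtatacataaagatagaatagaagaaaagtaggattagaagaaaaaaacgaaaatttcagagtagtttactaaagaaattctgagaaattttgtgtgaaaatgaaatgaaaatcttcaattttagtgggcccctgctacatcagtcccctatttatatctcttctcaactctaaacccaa

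In windows of 300 bases, from 250 before to 50 after the gene start, TTGAC on either strand was found in 153 of the 218 promoters, or 70.2%, against 50.5% of 27443 protein-coding genes. At least 2 cores were found in 39.4% of the 218 promoters, against 17.7% of all, and at least 3 in 13.8%, against 4.86%. The 2360 promoters of genes that were higher in both NuA4 mutants but not lower in glk held a core in 52.7% of cases and at least 2 in 19.1%. The 937 promoters of genes lower in glk but not higher in both NuA4 mutants held a core in 54.1% and at least 2 in 24.3%. So the share of W-box cores in the 218 promoters lay above that of either larger group that met only a part of the rule. GAANNTTC, a core of the heat shock element, was found in 21.6% of the 218 promoters, against 11.6% of all. The other letters searched, on both strands, were the G-box CACGTG (7.34%, against 7.68% of all), the evening element AAAATATCT (4.13%, against 2.82%), TGACG, which overlaps the W-box core in the string TTGACG (26.1%, against 23.1%), and the GCC-box GCCGCC (0.917%, against 2.57%). A match of letters does not show a bound site, and no test was run on these shares.

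**Figure D2:**
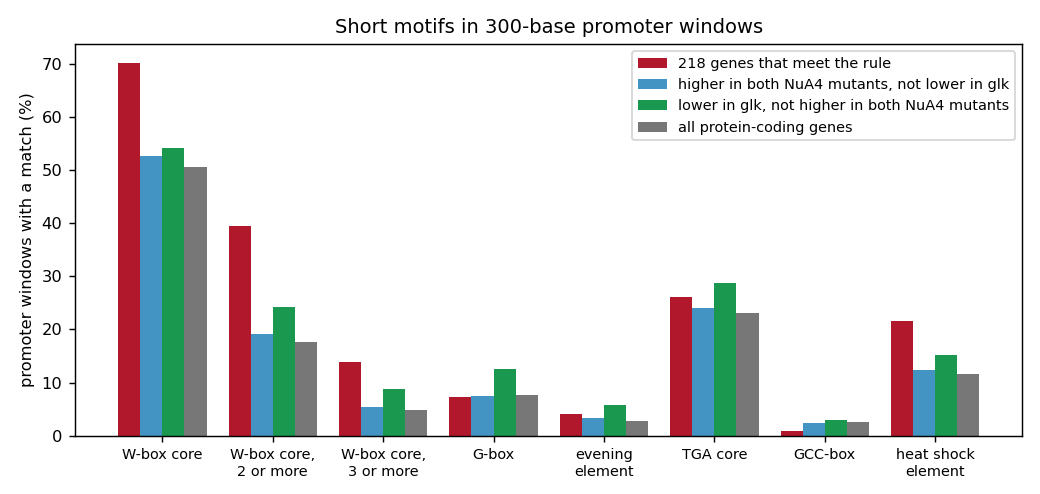
Share (%) of 300-base promoter windows that hold each motif on either strand, for the 218 genes, both larger groups that met a part of the rule and all 27443 protein-coding genes. W-box cores were present in 70.2% of the 218 windows and 50.5% of all. In percentage points each other motif differed less, with the heat shock element next (21.6% and 11.6%).

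Among the 218 genes the median log2 ratio to WT was 2.1 for Atepl1-2, 1.85 for Ateaf1-1 and -1.43 for the glk mutant. The ratio reached 2 or more in Atepl1-2 for 117 genes and in Ateaf1-1 for 97 genes, and -2 or lower in glk for 52 genes. The Atepl1-2 libraries all lay above all 4 WT libraries for 206 of the 218 genes, beside 29.5% of the 16305 genes, and the Ateaf1-1 libraries for 189, beside 29.0%. The glk libraries all lay below the 4 WT libraries for 165 genes, beside 7.95%. All 3 mutants were separated from WT in these directions for 140 genes, beside 1.48% of the 16305 genes. Since the same libraries chose the genes, nothing is read from these counts beyond how far the libraries overlapped. At the edge of the glk condition, the last genes inside were FAO3 (log2 ratio -0.82), AT1G21520 (-0.81) and AT4G00955 (-0.81), and the first outside were AT1G14330 (-0.796, with a mean of 12.5 CPM in glk and 22.4 CPM in WT), AT1G74010 (-0.79) and HLECRK (-0.79).

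**Figure D3:**
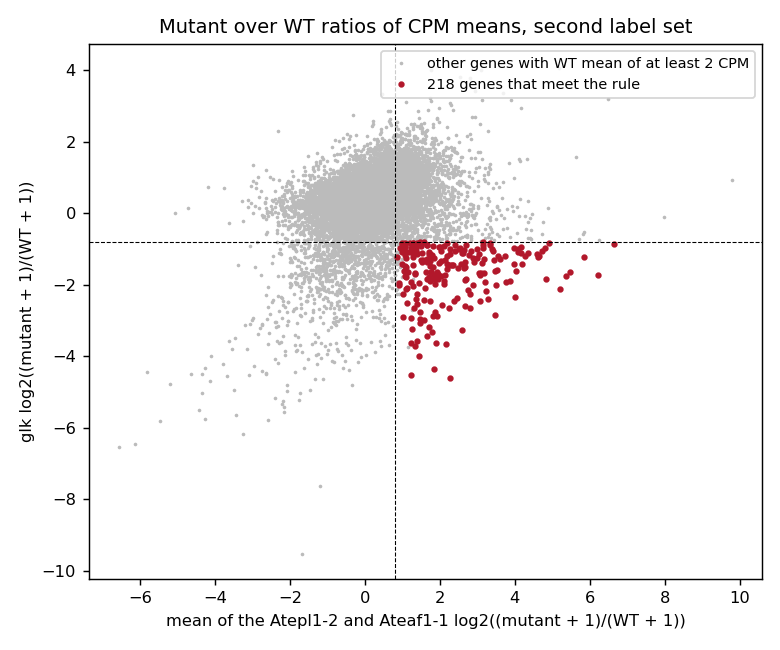
Log2 ratio of the glk mean to the WT mean (vertical axis) against the average of the Atepl1-2 and Ateaf1-1 log2 ratios (horizontal axis) for 16305 genes, with 1 CPM added to each mean; red points are the 218 genes and dashed lines mark 0.8 and -0.8. The red points fill the lower right corner by construction, with glk ratios from -0.81 down to -4.59.

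Genes of salicylic acid synthesis and signalling made up a class of 6 among the 218. SARD1 had 268, 269 and 259 CPM in Atepl1-2, 249, 218 and 247 CPM in Ateaf1-1 and 4.71, 6.28 and 3.44 CPM in glk, against 29.2, 48.2, 13.1 and 51.5 CPM in WT (replicates 5, 7, 8 and 4, the order used throughout). CBP60G had 456, 417 and 377 CPM in Atepl1-2, 325, 306 and 398 CPM in Ateaf1-1 and 14.99, 19.0 and 8.79 CPM in glk, against 114, 146, 76.8 and 73.9 CPM in WT. For both genes the groups did not overlap, and WT replicates differed by more than 1.5-fold among themselves. Their target gene EDS16 had 239, 224 and 168 CPM in Atepl1-2, 158, 202 and 211 CPM in Ateaf1-1 and 6.47, 7.16 and 5.56 CPM in glk, against 14.9, 20.4, 15.6 and 13.6 CPM in WT. EDS1, the lipase-like partner of PAD4 and SAG101, had 188, 108 and 71.9 CPM in Atepl1-2, 176, 125 and 223 CPM in Ateaf1-1 and 25.2, 25.04 and 22.8 CPM in glk, against 40.3, 61.7, 40.1 and 41.6 CPM in WT. Its glk libraries were nearly alike and its mutant NuA4 libraries spread over 3-fold. NIMIN-2, which binds the salicylic acid receptor NPR1, had 1.06, 0.805 and 0.879 CPM in glk, against 3.76, 6.09, 2.88 and 3.13 CPM in WT, and DMR6, which hydroxylates salicylic acid, had 18.9, 16.8 and 11.3 CPM in glk, against 35.1, 40.02, 20.1 and 41.1 CPM in WT. In the NuA4 mutants NIMIN-2 lay between 22.5 and 47.1 CPM and DMR6 between 495 and 722 CPM.

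**Figure D4:**
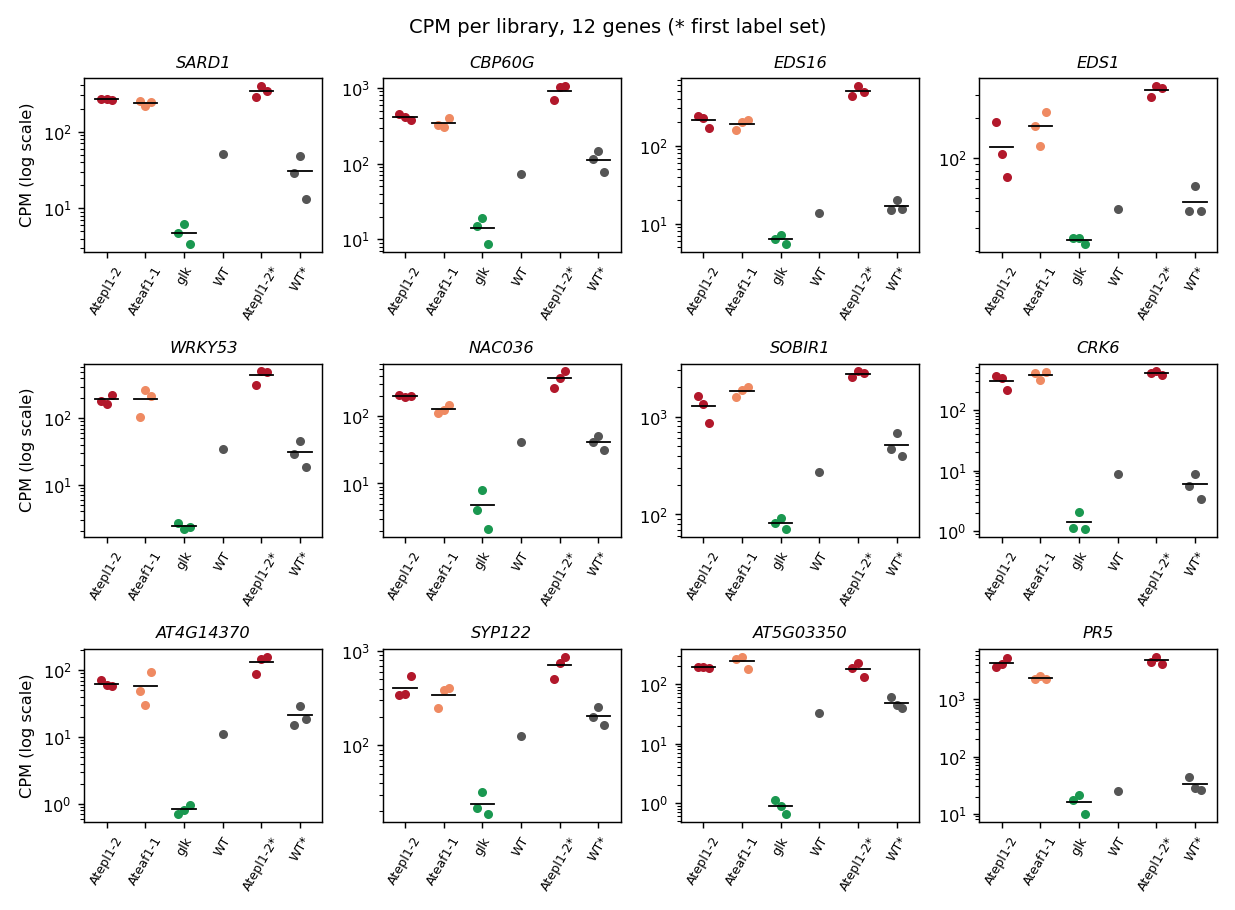
CPM (log scale) of 12 of the genes in every library; points are libraries, lines group means, and an asterisk marks the first label set. In each panel the 3 glk libraries lie lowest, and the Atepl1-2 and Ateaf1-1 libraries lie above the WT libraries but for 1 Ateaf1-1 library of SYP122.

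A list of 31 genes of the salicylic acid, N-hydroxypipecolic acid and EDS1 branch held 23 genes above the WT minimum, of which 20 met the NuA4 condition, 11 the glk condition and 9 the whole rule (39.1%, beside 1.34% of all 16305 genes). The list was drawn up with results of these data known. The 9 were EDS1, EDS16, SARD1, CBP60G, NIMIN-2, DMR6, PR5, WRKY70 and WRKY54. PAD4 and SAG101, the partners of EDS1, had glk ratios of -0.69 and -0.67 and so missed the rule narrowly. The pathogenesis-related genes PR1 and PR2 had glk ratios of 0.93 and -0.11, and PBS3, which conjugates isochorismate, had 1.51, all with NuA4 ratios above 4. NPR3, a salicylic acid receptor, had a glk ratio of -1.75 but NuA4 ratios of 0.14 (Atepl1-2) and 0.56 (Ateaf1-1). Within the first set 27 of the 31 genes rose in Atepl1-2 by edgeR, beside 23.3% of all genes tested, and 0 fell, beside 21.8%, with a median log2 fold change of 3.77 over the list beside 0.05 over all genes tested.

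Secreted and pathogenesis-related proteins act at the output end of the response. PR5, a thaumatin-like protein, had 3588, 4084 and 5166 CPM in Atepl1-2, 2252, 2543 and 2232 CPM in Ateaf1-1 and 17.59, 21.5 and 9.96 CPM in glk, against 44.5, 28.2, 26.3 and 24.6 CPM in WT. Its glk ratio of -0.88 was close to the threshold while its Atepl1-2 ratio of 7.07 was the highest of the 218. BG3, a beta-1,3-glucanase, had 276, 311 and 438 CPM in Atepl1-2, 269.9, 161 and 247 CPM in Ateaf1-1 and 0.844, 1.29 and 0.146 CPM in glk, against 6.61, 7.43, 2.76 and 9.63 CPM in WT. AT5G10760, an aspartyl protease family gene, had 1924, 1839.6 and 1386 CPM in Atepl1-2, 1996, 1456 and 1423 CPM in Ateaf1-1 and 11.1, 14.1 and 7.91 CPM in glk, against 18.24, 30.6, 11.3 and 99.1 CPM in WT. WT replicate 4 alone stood 3-fold or more above each other WT library for this gene. The lowest glk ratio of all, -4.59, belonged to the legume lectin family gene AT5G03350, which had 193, 196 and 191 CPM in Atepl1-2, 264, 292 and 179 CPM in Ateaf1-1 and 1.13, 0.885 and 0.659 CPM in glk, against 60.3, 45.6, 39.5 and 33.4 CPM in WT. LURP1, needed for resistance to the oomycete Hyaloperonospora, had 11.0, 19.9 and 6.00 CPM in glk, against 23.7, 23.7, 7.79 and 62.4 CPM in WT, and glk replicate 3 alone lay below the WT range.

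PCC1 and its neighbour AT3G22235, small cysteine-rich membrane proteins, differed between the label sets. PCC1 had 285, 303 and 429 CPM in Atepl1-2, 349, 314 and 229 CPM in Ateaf1-1 and 6.19, 6.36 and 2.12 CPM in glk, against 72.0, 65.2, 46.4 and 353 CPM in WT. The last of these values, WT replicate 4, lay inside the Atepl1-2 range and above all 3 Ateaf1-1 libraries, so against the WT library of their own set the NuA4 mutants were not higher and glk was lower. AT3G22235 had 853, 1048 and 1785 CPM in Atepl1-2, 1017, 877 and 670.0 CPM in Ateaf1-1 and 20.9, 27.4 and 14.9 CPM in glk, against 183, 183, 114 and 618 CPM in WT. Here too WT replicate 4 was the highest WT library. BCB, a blue copper protein, had the opposite arrangement, with 563, 572 and 1054 CPM in Atepl1-2, 425, 557 and 557 CPM in Ateaf1-1 and 10.2, 16.8 and 12.6 CPM in glk, against 214, 378, 263 and 46.2 CPM in WT. AT1G14250, a nucleoside phosphatase family gene, had 132, 124 and 47.9 CPM in Atepl1-2, 98.9, 53.8 and 81.3 CPM in Ateaf1-1 and 0.211, 0.0805 and 0.366 CPM in glk, against 6.38, 10.0, 25.5 and 54.6 CPM in WT. With AT5G03350, the genes PCC1, AT1G14250 and BCB had the lowest glk ratios of the 218 (-4.52, -4.37 and -3.99), and in these 3 the highest WT library stood more than 7-fold above the lowest.

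Of the 20 transcriptional regulators among the 218, 7 were WRKY factors. WRKY53, an early regulator of leaf senescence and defence, had 186, 166 and 228 CPM in Atepl1-2, 106, 265 and 218 CPM in Ateaf1-1 and 2.67, 2.17 and 2.34 CPM in glk, against 28.8, 45.2, 18.5 and 34.6 CPM in WT. WRKY46 had 143, 135 and 86.5 CPM in Atepl1-2, 98.9, 109.6 and 149 CPM in Ateaf1-1 and 4.01, 4.03 and 4.32 CPM in glk, against 52.2, 63.9, 24.6 and 18.9 CPM in WT. WRKY70, which balances salicylic acid against jasmonate output, had 257, 224 and 187 CPM in Atepl1-2, 253, 238 and 202 CPM in Ateaf1-1 and 55.0, 48.7 and 53.3 CPM in glk, against 149, 119, 51.2 and 177 CPM in WT. The WRKY70 glk libraries overlapped WT replicate 8, and WT replicate 8 was likewise the lowest for the related WRKY54, with 3.24, 4.27 and 3.15 CPM in glk, against 30.8, 38.1, 6.48 and 61.3 CPM in WT. WRKY30 was scarce, at 12.4, 13.9 and 9.40 CPM in Atepl1-2, 9.65, 12.5 and 13.0 CPM in Ateaf1-1 and 0.563, 0.161 and 0 CPM in glk, against 1.14, 5.57, 1.80 and 0.627 CPM in WT. WRKY25 and WRKY15 completed the group, with log2 ratios of -1.72 and -1.95 in glk. Of 31 WRKY genes above the WT minimum, 14 met the NuA4 condition, 12 the glk condition and 7 both (22.6%, beside 1.34%). The 5 that were lower in glk alone were WRKY18, WRKY22, WRKY33, WRKY40 and WRKY48, with NuA4 ratios between -2.13 and 0.54.

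The other regulators included NAC, MYB and zinc finger factors. NAC036 had 203, 193 and 198 CPM in Atepl1-2, 109.6, 122 and 148 CPM in Ateaf1-1 and 4.01, 8.05 and 2.12 CPM in glk, against 41.9, 49.9, 31.7 and 41.8 CPM in WT. MYB15, a regulator of lignin formation in defence, had 54.7, 56.1 and 49.3 CPM in Atepl1-2, 16.7, 21.3 and 52.7 CPM in Ateaf1-1 and 0, 0.403 and 0.732 CPM in glk, against 14.5, 21.4, 7.20 and 3.37 CPM in WT. MYB51, which drives indole glucosinolate genes, had 72.0, 65.9 and 86.9 CPM in Atepl1-2, 52.9, 79.4 and 79.3 CPM in Ateaf1-1 and 7.04, 7.24 and 4.03 CPM in glk, against 25.5, 24.96, 16.1 and 38.9 CPM in WT. Groups did not overlap for NAC036 or MYB51, and for MYB15 a pair of Ateaf1-1 libraries lay within the WT range. ZAT7, NAC090 and SIB1 had glk ratios of -2.87, -2.18 and -2.26. TEM1, a repressor of flowering that is among the highest-expressed of the 218 in WT, had 266, 237 and 772 CPM in Atepl1-2, 126, 449 and 249 CPM in Ateaf1-1 and 94.4, 66.7 and 56.7 CPM in glk, against 195, 132, 165 and 135 CPM in WT. Replicate 4 of Atepl1-2 and replicate 2 of Ateaf1-1 stood apart from the others of their groups, and the lowest Ateaf1-1 library lay below all WT libraries.

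Receptor-like kinases and receptor-like proteins were the largest named class, with 27 genes. SOBIR1, the kinase that pairs with receptor-like proteins, had the highest WT mean CPM of the 218, with 1604, 1359 and 856 CPM in Atepl1-2, 1582, 1883 and 1985 CPM in Ateaf1-1 and 82.1, 91.5 and 71.4 CPM in glk, against 467, 682, 395 and 269 CPM in WT. BIR1, a receptor-like kinase that restrains cell death, had 398, 272 and 174 CPM in Atepl1-2, 349.7, 289 and 391 CPM in Ateaf1-1 and 33.3, 29.7 and 28.0 CPM in glk, against 107, 147, 89.2 and 168 CPM in WT. LYK5, the chitin receptor, had 60.7, 53.3 and 43.3 CPM in Atepl1-2, 42.8, 62.0 and 72.8 CPM in Ateaf1-1 and 4.50, 6.04 and 4.69 CPM in glk, against 25.5, 34.1, 18.8 and 22.2 CPM in WT. These 3 receptors had groups that did not overlap. SERK4, a co-receptor, and IOS1, a malectin-like kinase, had glk ratios of -1.26 and -2.45.

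Of 24 cysteine-rich receptor-like kinase genes above the WT minimum, 8 met the rule (33.3%, beside 1.34%), while 13 met the NuA4 condition and 12 the glk condition. CRK6 had 364, 330.3 and 209 CPM in Atepl1-2, 399, 314 and 421 CPM in Ateaf1-1 and 1.13, 2.09 and 1.098 CPM in glk, against 5.59, 8.77, 3.36 and 8.77 CPM in WT. CRK4 had 765, 685 and 549 CPM in Atepl1-2, 609.9, 474 and 681 CPM in Ateaf1-1 and 24.98, 23.6 and 12.2 CPM in glk, against 44.3, 43.6, 31.3 and 81.6 CPM in WT. CRK14 had 114, 104 and 97.5 CPM in Atepl1-2, 91.7, 84.3 and 141 CPM in Ateaf1-1 and 3.31, 3.22 and 4.61 CPM in glk, against 32.4, 74.6, 31.3 and 36.7 CPM in WT. Whereas CRK6 and CRK4 differed from WT mainly upward in the NuA4 mutants, CRK14 differed mainly downward in glk. Apart from CRK4 and CRK40, these genes lie in a tandem array on chromosome 4. CRK5 and CRK6 are neighbours from 12117491 to 12124564, and CRK12, CRK13, CRK14 and CRK15 are consecutive protein-coding genes from 12145035 to 12160279 (TAIR10.1). Related copies may share reads, so the split of counts among them is uncertain. In the same array CRK10 had a log2 ratio of -2.29 in glk but -0.62 in Atepl1-2 and -0.43 in Ateaf1-1, and CRK18 had 0.17 in glk with 3.38 and 3.66 in Atepl1-2 and Ateaf1-1. Over the genome 22 of the 218 genes fell into 10 runs of adjacent protein-coding genes, the CRK run of 4 being the longest. The same count was not made for other genes, so nothing is read from it.

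Intracellular receptors and related proteins made up 11 genes. AT4G14370, a TIR-NBS-LRR gene, had 71.4, 59.6 and 58.7 CPM in Atepl1-2, 48.7, 30.2 and 95.3 CPM in Ateaf1-1 and 0.704, 0.805 and 0.952 CPM in glk, against 15.05, 29.1, 18.8 and 11.1 CPM in WT. HR4, a homologue of the RPW8 powdery mildew resistance protein, had 586, 582 and 609 CPM in Atepl1-2, 537, 346 and 715 CPM in Ateaf1-1 and 15.8, 23.8 and 7.32 CPM in glk, against 68.2, 99.0, 67.5 and 82.8 CPM in WT. ADR1-L1, a helper receptor that acts with EDS1, had 311, 308 and 203 CPM in Atepl1-2, 306, 303 and 308 CPM in Ateaf1-1 and 67.1, 65.4 and 55.2 CPM in glk, against 131, 153, 113 and 97.3 CPM in WT. The range for ADR1-L1 was the narrowest of the 3. The class as annotated by NBS-LRR or NB-ARC was not uniformly in the rule: of 97 such genes above the WT minimum, 18 met the NuA4 condition, 22 the glk condition and 4 both (4.12%, beside 1.34%). The 4 were AT3G04220, AT3G25510, AT4G14370 and AT5G41550.

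Kinases and calcium-linked proteins downstream of receptors counted 15 genes. MPK11, a mitogen-activated protein kinase, had 94.1, 98.4 and 99.0 CPM in Atepl1-2, 60.96, 45.6 and 123 CPM in Ateaf1-1 and 1.55, 2.01 and 1.90 CPM in glk, against 25.3, 60.8, 14.3 and 29.8 CPM in WT. ARCK1, a receptor-like cytoplasmic kinase, had 201, 199.6 and 133 CPM in Atepl1-2, 152, 151 and 180.1 CPM in Ateaf1-1 and 2.04, 2.90 and 1.39 CPM in glk, against 5.24, 7.43, 3.96 and 3.92 CPM in WT. WT replicate 7 reached the range of Ateaf1-1 for MPK11 but no WT replicate did so for ARCK1. PBL1, a kinase phosphorylated on pattern recognition, had 88.1, 75.03 and 59.1 CPM in Atepl1-2, 67.7, 26.0 and 34.7 CPM in Ateaf1-1 and 10.8, 12.3 and 9.52 CPM in glk, against 11.5, 14.4, 13.2 and 57.1 CPM in WT. For PBL1, WT replicate 4 lay above 2 of the 3 Ateaf1-1 libraries. Its glk libraries overlapped the WT libraries of the first set, so its glk ratio rested on WT replicate 4.

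Proteins of secretion and of plasma membrane domains included SYP122 and SNAP33, SNARE proteins of vesicle fusion, EXO70B2 of the exocyst, HIR2 and FLOT1. SYP122 had 341, 348 and 543 CPM in Atepl1-2, 247, 384 and 403 CPM in Ateaf1-1 and 21.5, 31.8 and 18.7 CPM in glk, against 201, 252, 165 and 125 CPM in WT. HIR2 had 271, 255 and 331 CPM in Atepl1-2, 217, 217 and 337 CPM in Ateaf1-1 and 7.46, 12.6 and 1.68 CPM in glk, against 101, 151, 108 and 68.6 CPM in WT. SNAP33 had 226, 168 and 146 CPM in Atepl1-2, 198, 168 and 270.2 CPM in Ateaf1-1 and 44.2, 44.4 and 41.6 CPM in glk, against 88.0, 117, 86.6 and 78.0 CPM in WT. Within this class the glk log2 ratios differed widely, at -3.72 for HIR2, -2.90 for SYP122 and -1.07 for SNAP33.

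In the tryptophan branch of glucosinolate synthesis, CYP79B2, which makes indole-3-acetaldoxime, had 265, 271 and 257 CPM in Atepl1-2, 339.5, 332 and 277 CPM in Ateaf1-1 and 24.0, 19.2 and 22.0 CPM in glk, against 96.9, 105, 91.4 and 28.5 CPM in WT. The next enzyme, CYP83B1, had 621, 597 and 507 CPM in Atepl1-2, 649.9, 558 and 648 CPM in Ateaf1-1 and 147, 140.2 and 136 CPM in glk, against 341, 331, 297 and 223 CPM in WT. For CYP79B2, WT replicate 4 lay close to the glk libraries, so its glk ratio rested on the WT libraries of the first set. CYP81F2, which modifies the indole ring, had 15.4, 18.21 and 19.3 CPM in Atepl1-2, 11.7, 31.9 and 31.8 CPM in Ateaf1-1 and 0.915, 2.82 and 0.439 CPM in glk, against 6.50, 10.5, 17.5 and 2.98 CPM in WT. CYP79B3, the paralogue of CYP79B2, fell outside the rule with a glk log2 ratio of -1.35 and NuA4 ratios of -0.28 (Atepl1-2) and 0.43 (Ateaf1-1). The aliphatic genes CYP79F1 and CYP83A1 had glk ratios of 0.52 and 0.29.

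Enzymes of conjugation were represented by GSTF6, a glutathione transferase of camalexin synthesis, and by 4 glycosyltransferases, UGT71B6, UGT73B2, UGT85A1 and UGT87A2. GSTF6 had 539, 571 and 659 CPM in Atepl1-2, 547, 437 and 523 CPM in Ateaf1-1 and 16.3, 22.3 and 6.52 CPM in glk, against 31.3, 41.9, 39.0 and 13.0 CPM in WT. Its WT replicate 4 lay within the glk range. UGT71B6, which glucosylates abscisic acid, had 32.9, 26.7 and 37.1 CPM in Atepl1-2, 17.1, 35.9 and 29.9 CPM in Ateaf1-1 and 1.06, 0.805 and 0.879 CPM in glk, against 3.53, 7.22, 4.92 and 2.58 CPM in WT. TAT3, a tyrosine aminotransferase, had 634, 591 and 714 CPM in Atepl1-2, 805, 487 and 791 CPM in Ateaf1-1 and 0.774, 3.46 and 0.805 CPM in glk, against 7.18, 13.6, 6.96 and 4.07 CPM in WT. TAT3 had the highest Ateaf1-1 ratio of the 218, 6.28. The sulfate transporter gene SULTR1;2 had 16.9, 15.5 and 14.0 CPM in Atepl1-2, 11.4, 17.1 and 11.9 CPM in Ateaf1-1 and 1.06, 0.644 and 0.952 CPM in glk, against 6.04, 4.64, 9.71 and 0 CPM in WT. WT replicate 4 held no SULTR1;2 count.

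Lists of other responses were short, so their counts are given as values only, beside 1.34% of all 16305 genes. The rule was met by 0 of 16 jasmonate and ethylene genes, 0 of 15 clock genes and 0 of 15 cold and drought genes above the WT minimum, counts too small to tell from that background. It was met by 2 of 8 leaf senescence genes (25%), SAG21 and WRKY53, by 2 of 8 sulfur limitation genes (25%), SULTR1;2 and ATSDI1, and by 1 of 14 iron genes (7.14%), FRO3. The 12 rapid touch and wound genes were lower in glk without exception, with a median log2 ratio of -3.39, but only CNI1, the ubiquitin ligase also called ATL31, met the NuA4 condition and so the rule (8.33%). In this list TCH4 and WRKY40 had glk ratios of -4.94 and -4.80 and Atepl1-2 ratios of -1.56 and -2.13. The touch list moved with the 218 genes in glk but not in the NuA4 mutants, and its part in the glk result was not tested. FRO3, a mitochondrial ferric reductase, had 45.3, 44.2 and 42.9 CPM in Atepl1-2, 50.3, 40.6 and 45.6 CPM in Ateaf1-1 and 14.0, 11.2 and 7.91 CPM in glk, against 16.1, 27.6, 11.8 and 36.0 CPM in WT. LHCB4.3, an antenna protein made under strong light, had 126, 113 and 129 CPM in Atepl1-2, 102, 166 and 123 CPM in Ateaf1-1 and 20.9, 26.4 and 32.4 CPM in glk, against 61.7, 67.4, 54.2 and 13.2 CPM in WT. WT replicate 4 lay below all glk libraries for LHCB4.3.

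How the 218 genes stood against WT replicate 4, the only WT library labelled with the mutants, was therefore described separately, with no test because it is a single library. With the same 16305 genes, all 3 parts of the rule were met against replicate 4 alone by 129 of the 218 genes, or 59.2%, beside 1.56% of the 16305 genes. The glk ratio was -0.8 or lower for 155 genes, beside 7.68%, the Atepl1-2 ratio 0.8 or higher for 207, beside 18.7%, and the Ateaf1-1 ratio 0.8 or higher for 194, beside 15.8%. WT replicate 4 lay below all 3 WT libraries of the first set for 98 of the 218 genes (20.1% of the 16305 genes) and above all 3 for 64 genes (62.7%). Within the first set, WT replicate 7 was the highest WT library for 131 of the 218 genes, beside 32.2%, and replicate 8 the lowest for 116, beside 28.6%. Among the glk libraries replicate 2 was highest for 119, beside 31.2%, and replicate 3 lowest for 125, beside 33.2%. In Atepl1-2 of the second set no library was the highest or the lowest for most of the genes: replicate 4 was highest for 106, beside 32.3%, and lowest for 100, beside 58.5%. In Ateaf1-1 replicate 3 was highest for 110, beside 30.3%, and replicate 2 lowest for 105, beside 58.8%.

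The first label set holds Atepl1-2 libraries that the rule did not use, with WT libraries 5, 7 and 8 that it did use as part of its WT mean. This comparison asks whether the same genes are higher in other Atepl1-2 libraries. In edgeR's quasi-likelihood test with Benjamini-Hochberg adjustment over 18840 genes, at an adjusted p under 0.01 and at least a 1.5-fold change, 205 of the 218 genes rose in Atepl1-2, beside 23.3% of all genes tested, and 1 fell, beside 21.8%. The count is not independent of the choice of genes, since those 3 WT libraries entered both. The Atepl1-2 libraries of the sets also share their replicate numbers, and whether they came from the same plants is not given. The median log2 fold change was 2.47 over the 218 genes and 0.05 over all genes tested. Of 2390 tested genes that were higher in both NuA4 mutants but not lower in glk, 1638 rose (68.3% of the 2398 in that group), with a median of 1.06. At least a 4-fold rise was seen for 146 of the 218 genes and at least 16-fold for 40. The same counts were not made over all genes tested, so these are given as a description only.

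**Figure D5:**
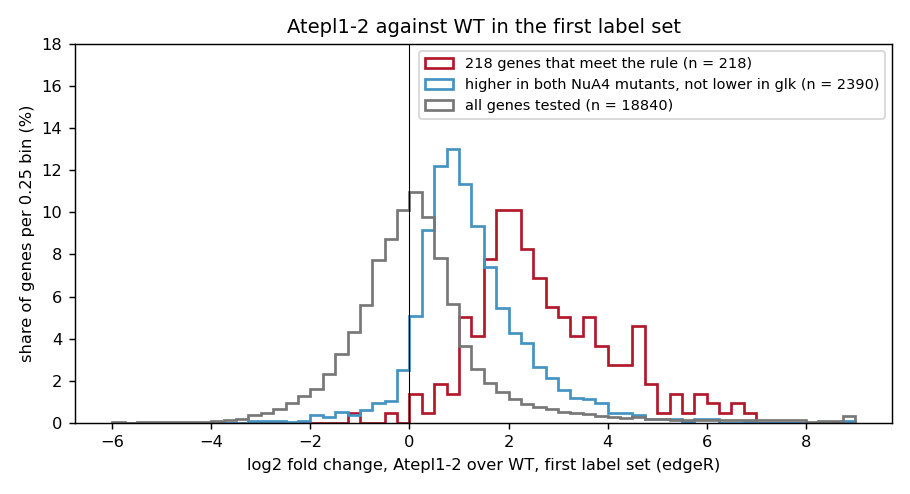
Distribution of log2 fold changes of Atepl1-2 over WT in the first label set (edgeR; share of genes per bin of 0.25, values beyond the axis placed in the end bins) for the 218 genes, for genes higher in both NuA4 mutants but not lower in glk, and for all 18840 genes tested. The medians are 2.47, 1.06 and 0.05.

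The steepest rises in the first set were those of PR5 (log2 fold change 6.94 ± 0.30 SE, edgeR adjusted p = 3.45e-07), AT1G13470 (log2 fold change 6.63 ± 0.22 SE, edgeR adjusted p = 9.72e-08), TAT3 (log2 fold change 6.54 ± 0.33 SE, edgeR adjusted p = 5.29e-07), AT5G10760 (log2 fold change 6.32 ± 0.38 SE, edgeR adjusted p = 1.11e-06), the leucine-rich repeat kinase AT1G51890 (log2 fold change 6.06 ± 0.27 SE, edgeR adjusted p = 3.45e-07) and BG3 (log2 fold change 6.05 ± 0.35 SE, edgeR adjusted p = 9.22e-07). PR5 had 4549, 5554 and 4128 CPM in Atepl1-2, against 44.5, 28.2 and 26.3 CPM in WT. BG3 had 486, 339 and 492 CPM in Atepl1-2, against 6.61, 7.43 and 2.76 CPM in WT. In both genes every Atepl1-2 library exceeded every WT library by more than 40-fold. All 27 receptor-like genes, all 11 intracellular receptor and RPW8-like genes and all 15 kinase and calcium-linked genes passed the test upward. So did all 6 membrane traffic genes and all 6 salicylic acid genes. Elsewhere 17 of 20 transcriptional regulators, 11 of 12 secreted proteins, 7 of 8 genes of specialized metabolism and 10 of 12 transferase and transporter genes passed. Of the genes classed as other or unknown, 95 of 101 passed. The share was 94% over all 218 genes, beside 23.3% of all genes tested, so nothing is read from the counts by class. SARD1 rose (log2 fold change 3.26 ± 0.39 SE, edgeR adjusted p = 7.87e-05), with 285, 390.2 and 343 CPM in Atepl1-2, against 29.2, 48.2 and 13.1 CPM in WT. EDS16 rose (log2 fold change 4.65 ± 0.20 SE, edgeR adjusted p = 3.33e-07), with 437, 575 and 485 CPM in Atepl1-2, against 14.9, 20.4 and 15.6 CPM in WT. WRKY53 rose (log2 fold change 3.63 ± 0.34 SE, edgeR adjusted p = 1.47e-05), with 323, 509 and 506 CPM in Atepl1-2, against 28.8, 45.2 and 18.5 CPM in WT.

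Some calls in the first set were lost on leaving out 1 library, although the fold changes stayed within 1.5 times of those given. WRKY70 (log2 fold change 1.52) lost it without WT replicate 7 (1.60, edgeR adjusted p = 0.0104) or Atepl1-2 replicate 3 (1.35, adjusted p = 0.0169), and WRKY54 (1.96) lost it without WT replicate 5 (2.14) or Atepl1-2 replicate 1 (1.92) or 3 (1.81), at edgeR adjusted p-values from 0.0124 to 0.0221. CRK14 (1.29) lost it without WT replicate 5 or 8 or Atepl1-2 replicate 3 or 4, with log2 fold changes between 1.06 and 1.33. AT1G14250 (1.51) lost it on leaving out any library but WT replicate 8, with values between 1.18 and 1.63, and FRO3 (1.06) any but WT replicate 7, with values between 0.81 and 1.13.

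The 13 genes that did not pass upward were PGL5, PMT6, ATSDI1, AT2G48030, PGL1, TEM1, GASA1, WRKY15, SULTR1;2, DREB2C, PDF1.4, CYP81F2 and AT1G30730. PGL5, a 6-phosphogluconolactonase gene of the pentose phosphate pathway, fell (log2 fold change -1.11 ± 0.22 SE, edgeR adjusted p = 0.00147), with 11.4, 20.4 and 15.02 CPM in Atepl1-2, against 29.7, 23.4 and 33.5 CPM in WT. In the second set the same gene had 72.1, 43.1 and 54.6 CPM in Atepl1-2, against 9.01 CPM in WT replicate 4, so its direction was opposite in the label sets. By limma on log2(TPM + 1) the PGL5 difference was -0.33 (limma adjusted p = 0.239, or 0.156 with a mean TPM of at least 1) and on log2(TPM + 0.1) it was -0.42 (adjusted p = 0.234), none of which passed. Its paralogue PGL1 had 17.2, 31.1 and 27.8 CPM in Atepl1-2 of the first set, against 13.9, 17.1 and 27.1 CPM in WT (log2 fold change 0.18 ± 0.27 SE, edgeR adjusted p = 0.588). PMT6, a polyol transporter, had 40.3, 56.2 and 67.3 CPM in Atepl1-2 of the first set, against 58.9, 59.3 and 74.6 CPM in WT (log2 fold change -0.45 ± 0.20 SE, edgeR adjusted p = 0.0737), and ATSDI1, induced under sulfur limitation, had 10.4, 10.7 and 9.75 CPM in Atepl1-2, against 5.93, 5.05 and 15.7 CPM in WT (log2 fold change 0.01 ± 0.35 SE, edgeR adjusted p = 0.988). AT2G48030 had a log2 fold change of 0.10 ± 0.18 (SE, edgeR adjusted p = 0.647; 0.78 by limma on log2(TPM + 0.1), limma adjusted p = 0.00748, which passed), and TEM1 of 0.32 ± 0.19 (adjusted p = 0.174). The 2 sulfur genes among the 218, SULTR1;2 and ATSDI1, were both in this group.

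Whether the 218 genes differed between the NuA4 mutants was asked by comparing Atepl1-2 with Ateaf1-1 of the second set in a fit of their 6 libraries with the 3 glk libraries. These libraries entered the rule. It set no difference between the mutants but a floor of 0.8 in both, so genes raised in a single mutant were left out beforehand. The shares called among the 218 genes are therefore not independent of the choice of genes. None of the 218 genes passed in either direction by edgeR, beside 0.0195% of 20484 genes called higher and 0% called lower. At an unadjusted p under 0.05 there were 51 of the 218, or 23.4%, beside 29.9% of all genes tested, and DESeq2's Wald test called 9 (4.13%), beside 6.17% of all genes tested, and limma-voom called 0, beside 0%. A p that misses the threshold does not show that the mutants acted alike. In simulated counts this comparison recovered 7 of 100 genes changed 2-fold and 79 of 100 changed 4-fold, so most 2-fold differences would be missed. The median log2 fold change was 0.10 over the 218 genes, and -0.01 over all. The largest fitted differences were AT1G56150, a SAUR-like gene, with 1.66 ± 0.31 (SE, edgeR adjusted p = 0.0286), DREB2C with 1.66 ± 0.78 (adjusted p = 0.180) and AT5G05300 with 1.60 ± 0.54 (adjusted p = 0.0899). At the other end were ABCG40, a transporter of the plasma membrane, with -1.18 ± 0.39 (adjusted p = 0.089), JRG21 with -1.08 ± 0.22 (adjusted p = 0.0353) and AT4G03450 with -0.86 ± 0.40 (adjusted p = 0.175). AT1G56150 had 25.3, 30.8 and 49.2 CPM in Atepl1-2, against 10.9, 8.88 and 13.1 CPM in Ateaf1-1, and JRG21 had 15.1, 15.6 and 17.7 CPM in Atepl1-2, against 42.7, 29.8 and 27.4 CPM in Ateaf1-1. For both the libraries of the mutants did not overlap. By class the median log2 difference was 0.43 for transcriptional regulators and 0.38 for kinases and calcium-linked proteins, and -0.32 for receptor-like genes and -0.24 for specialized metabolism.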

How the data were processed

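RNA-seq libraries from rosette leaves were prepared with the TruSeq Stranded Total RNA kit with Ribo-Zero Plant. The authors trimmed reads and removed rRNA with BBDuk2 and quantified genes with Salmon 0.13.1 on Araport11, with sequence and GC bias correction. The authors deposited expected counts, as Salmon estimates them, and TPM per gene. The counts are whole numbers in the deposited table and were tested as such. Of 32865 rows, 1123 non-nuclear rows were left out of CPM but kept in the fits, since the organelle share differed between genotypes. Expected counts divide reads among near-identical genes, so tandem copies are uncertain.

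The 218 genes, the gene lists and the role classes were chosen with earlier results of these data known. Tests used edgeR 4.0.16 quasi-likelihood fits in R 4.3.3 (TMM, filterByExpr), with Benjamini-Hochberg adjustment over all genes tested, an FDR under 0.01 and at least 1.5-fold change. DESeq2 1.42.0, limma 3.58.1 on counts and on log2(TPM + pseudocount), other filters and leaving out each library were alternatives. Scripts were tested on simulated counts with 100 genes changed 2-fold and 100 changed 4-fold. The first-set comparison recovered 47 and 94 of them. The comparison of Atepl1-2 with Ateaf1-1 recovered 7 and 79. Each library was made from a biological repeat of several pooled plants. The labels do not say that the repeats were grown apart, so p-values measure the spread between such pools.

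Genes named by rule were those in a list or family, the 8 with the highest WT mean, the 6 largest and 6 smallest changes in the first set, the 4 lowest glk ratios, and the 3 on each side of the glk threshold. Other genes named, such as LYK5, HIR2, MPK11, NAC036, HR4 and the extremes of Atepl1-2 against Ateaf1-1, were chosen after their values were seen. Names, coordinates and promoters came from RefSeq TAIR10.1, in which all 218 genes were found. The ChIP-seq data and the study's other samples were not used here.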

Additional observations from a re-analysis of the deposited data

Results flagged for a closer look

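Among the 4 WT libraries, 22 of the 218 genes (10.1%) had a library that stood apart by Dixon's test, beside 19.4% of the 16305 genes above the WT minimum. Chance flags about 1 group in 20. WT replicate 4 was the highest in 11 of the 22 (5.05% of the 218, beside 16.7%) and the lowest in 2 (0.917%, beside 1.2%). Of the 63 genes named by rule, 7 were in this group. WT replicate 4 reached 618 CPM for AT3G22235 (others 114 to 183), 353 CPM for PCC1 (others 46.4 to 72.0), 32.4 CPM for CRK5 (others 5.64 to 9.18), 11.2 CPM for AT1G13470 (others 1.56 to 2.62) and 5.80 CPM for UGT73B2 (others 2.06 to 2.62). WT replicate 7 reached 74.6 CPM for CRK14 (others 31.3 to 36.7) and 61.7 CPM for EDS1 (others 40.1 to 41.6). The part of the label sets in these values was not tested.

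PGL5 had opposite directions in the label sets. The log2 fold change of Atepl1-2 over WT was -1.11 in the first set, and the log2 ratio of Atepl1-2 to WT replicate 4 was 2.53 in the second. All 3 Atepl1-2 libraries moved in the direction of their set. The difference between the sets was not tested, since the second set has a single WT library.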

How the results depend on the processing

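The count of 205 genes that rose in Atepl1-2 of the first set lay between 196 and 205 on leaving out 1 library, and was 183 with WT replicate 4 added. No gene of the 218 differed between Atepl1-2 and Ateaf1-1 on leaving out 1 library (0 to 0), beside 0 to 69 of all genes tested. By DESeq2's Wald test 9 differed (4.13%, beside 6.17% of all genes). By limma on log2(TPM + 1) 1 differed (beside 0.145%), and 1 with a mean TPM of at least 1 as well (beside 0.17%). At an FDR under 0.05 there were 5 (2.29%, beside 3.9%). The cause of these differences between settings was not tested. The rule gave 208 to 245 genes on leaving out 1 library, 73 of the 218 among 131 genes with TPM in place of CPM, 129 among 193 with CPM over all rows and 123 among 252 with WT replicate 4 as the only WT library and the minimum of 2 CPM set on it (129 where the minimum stayed on the mean of the 4 WT libraries).

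With the replicate block, 0 of the 218 genes differed between Atepl1-2 and Ateaf1-1, and 35 had an unadjusted p under 0.05 (16.1%, beside 19.9% of all genes). Same-numbered libraries correlated between -0.116 and 0.201 in their deviations from group means, and differently numbered ones between -0.25 and 0.222. With 3 libraries per mutant these values cannot show whether the numbers pair the libraries.

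Of 69 single-gene results, 1043 alternatives kept direction and call, 30 lost the call, 25 gained it and 9 turned the direction. The log2 fold change in the first set turned to -0.050 for AT2G48030 without WT replicate 5 (0.18 without WT replicate 8, and in limma fits 0.38 with 1 added to the TPM and 0.78 with 0.1 added, the fit that gained the call), to -0.089 for PCC1 with WT replicate 4 added, and to 0.21 by limma on log2(TPM + 1), with or without the minimum, and 0.24 on log2(TPM + 0.1) for PMT6. For ATSDI1 it was -0.0033 by DESeq2, -0.19 without WT replicate 5, -0.28 without WT replicate 7, -0.027 without Atepl1-2 replicate 3 and 0.66 without WT replicate 8. Adding WT replicate 4 also ended the calls of AT1G14250 (0.89), FRO3 (0.89), WRKY54 (1.68), AT3G22235 (0.92), BCB (2.31, against 1.95 without it) and PGL5 (-0.79). Counts near the WT minimum of 2 CPM limit the precision of the glk ratios.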
